A study of Mus musculus with 6 samples.

Results

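The proteasome genes described here are the 50 of 25124 rows of a mouse expression table whose symbols are built on Psma, Psmb, Psmc, Psmd, Psme, Psmf or Psmg followed by a number. The libraries, 3 M1 and 3 M0, were made from poly(A) RNA of the mouse macrophage-like line RAW264.7. M1 cells had received the bacterial lipopolysaccharide LPS at 100 ng/ml together with the cytokine IFN-γ at 50 ng/ml, and M0 cells had received neither; how long they were treated is not stated in the labels. Cells of both groups came from a control line made with a plasmid encoding Cas9 and no guide RNA, and were grown in medium with 25 mM glucose. Nothing in the sources says that the 3 libraries of a group came from separate cultures, and the p-values therefore cover a spread between libraries that may be technical.

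The proteasome is the barrel-shaped protease that breaks down ubiquitin-tagged proteins. Its 20S core is a stack of rings of alpha subunits, which gate the entrance, and beta subunits, some of which cut peptide bonds, and it is capped by the 19S particle, which binds, unfolds and feeds in the substrate. Cells exposed to interferons can build the immunoproteasome, in which the cutting subunits Psmb6, Psmb7 and Psmb5 are replaced during assembly by Psmb9, Psmb10 and Psmb8, and the cap PA28, built from Psme1 and Psme2, can take the place of a 19S particle. The immunoproteasome is known for supplying peptides for MHC class I molecules.

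The promoters of the 5 immunoproteasome genes are shown because these genes carry the contrast between the groups. Those of their constitutive counterparts Psmb5 and Psmb6 are shown beside them, and no window was found for Psmb7. Each run is the RefSeq window of GRCm38.p6 from 250 bases before to 50 bases after the gene's start, written 5′ to 3′ on the gene's own strand. Capitals mark the letters of any of 5 motifs found on either strand, which are the interferon-stimulated response element (ISRE, searched as a pair of GAAA repeats 2 bases apart), the gamma-activated site (GAS, TTCNNNGAA), the antioxidant response element (ARE, TGACNNNGC), the CCAAT box and the NF-κB site.
Psmb8, chr17:34197945-34198244, plus strand: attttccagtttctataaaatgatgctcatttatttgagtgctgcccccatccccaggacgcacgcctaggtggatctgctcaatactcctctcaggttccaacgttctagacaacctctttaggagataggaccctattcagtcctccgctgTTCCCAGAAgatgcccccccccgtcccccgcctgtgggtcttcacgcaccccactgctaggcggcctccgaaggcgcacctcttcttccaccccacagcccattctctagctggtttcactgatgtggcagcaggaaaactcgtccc
Psmb9, chr17:34187281-34187580, minus strand: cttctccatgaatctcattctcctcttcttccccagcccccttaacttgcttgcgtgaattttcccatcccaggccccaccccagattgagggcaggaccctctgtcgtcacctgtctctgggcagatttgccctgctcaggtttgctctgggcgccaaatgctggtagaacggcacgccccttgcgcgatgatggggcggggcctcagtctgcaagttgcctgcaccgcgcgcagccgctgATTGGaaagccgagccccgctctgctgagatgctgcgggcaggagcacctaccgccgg
Psmb10, chr8:105938343-105938642, minus strand: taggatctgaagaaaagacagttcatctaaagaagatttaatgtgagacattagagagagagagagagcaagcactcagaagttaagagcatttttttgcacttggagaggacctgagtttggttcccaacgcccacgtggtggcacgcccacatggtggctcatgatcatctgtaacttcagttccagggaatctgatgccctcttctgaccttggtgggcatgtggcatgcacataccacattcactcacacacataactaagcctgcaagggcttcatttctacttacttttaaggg
Psme1, chr14:55578244-55578543, plus strand: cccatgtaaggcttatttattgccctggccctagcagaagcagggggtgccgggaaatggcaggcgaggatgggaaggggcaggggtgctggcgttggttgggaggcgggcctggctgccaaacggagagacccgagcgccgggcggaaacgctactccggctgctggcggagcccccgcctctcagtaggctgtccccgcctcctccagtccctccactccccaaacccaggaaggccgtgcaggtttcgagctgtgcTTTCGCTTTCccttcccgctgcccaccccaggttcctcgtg
Psme2, chr14:55590972-55591271, minus strand: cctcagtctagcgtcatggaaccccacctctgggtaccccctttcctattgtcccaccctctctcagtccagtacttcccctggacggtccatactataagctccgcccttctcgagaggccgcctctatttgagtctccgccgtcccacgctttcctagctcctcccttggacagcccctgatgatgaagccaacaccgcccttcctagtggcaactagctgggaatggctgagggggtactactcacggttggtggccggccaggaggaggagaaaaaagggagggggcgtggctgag
Psmb5, chr14:54617946-54618245, minus strand: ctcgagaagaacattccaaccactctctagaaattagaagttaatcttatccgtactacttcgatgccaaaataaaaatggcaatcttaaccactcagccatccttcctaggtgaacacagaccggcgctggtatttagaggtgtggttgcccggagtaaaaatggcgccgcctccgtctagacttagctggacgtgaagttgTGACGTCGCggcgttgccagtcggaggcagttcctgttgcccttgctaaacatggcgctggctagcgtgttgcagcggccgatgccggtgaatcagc
Psmb6, chr11:70525107-70525406, plus strand: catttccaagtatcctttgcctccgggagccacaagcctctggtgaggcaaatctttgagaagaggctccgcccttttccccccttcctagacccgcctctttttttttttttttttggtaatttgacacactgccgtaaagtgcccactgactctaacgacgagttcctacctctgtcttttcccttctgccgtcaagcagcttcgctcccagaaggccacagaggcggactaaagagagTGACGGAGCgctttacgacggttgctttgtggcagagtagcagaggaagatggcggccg
In these windows the Psmb8 promoter held a GAS match, TTCCCAGAA, that began 97 bases upstream of the start. The Psme1 window held an ISRE match on the opposite strand, TTTCGCTTTC, 9 bases downstream of the start. Psmb9 held a CCAAT box, read as ATTGG, 8 bases upstream. Psmb5 and Psmb6 each held an ARE match, TGACGTCGC at 47 bases and TGACGGAGC at 9 bases upstream, and Psmb10 and Psme2 held none of the 5 motifs. No 2 matches overlapped in the windows shown.

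A window was found for 42 of the 50 genes, and 41 of them began at the same base as the deposited transcript. The ISRE letters stood in 1 of 5 immunoproteasome windows and in 4 of 37 other proteasome windows, against 3.44% of all 32851 RefSeq windows of the same length. GAS letters stood in 1 of 5 and 2 of 37, against 8.30% of all windows. ARE letters stood in 0 of 5 and 6 of 37, against 12.4%; CCAAT in 1 of 5 and 12 of 37, against 37.4%; and the NF-κB letters in 0 of 5 and 6 of 37, against 8.46%. These matches describe the letters of the windows only, and whether any of them is bound was not tested.

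Reads assigned to genes numbered 15615639 to 20283180 per library, recovered from the deposited TPM (a transcript's level relative to its length and to the library's total) and the transcript lengths. The deposited TPM did not sum to the same total in every library. The sums were 568081 to 572349 in M1 and 551257 to 555447 in M0. All 7 macrophage markers listed, among them Lyz2, were at 1 TPM or more in every library, with a summed level of 1971 to 2024 TPM in M1 and 2328 to 2541 TPM in M0. No T cell, epithelial, fibroblast or endothelial marker on the lists reached 1 TPM in any library, and Cd3g, Cd8a and Krt8 were at 0 in all 6. The 4 M1 state markers summed to between 4834 and 4919 TPM in M1 and to at most 27.5 TPM in M0. Across all 11297 genes tested the median log2 change of M1 over M0 was -0.31 on the TPM scale, and 0.003 once each library's TPM had been rescaled with median-of-ratios size factors; values on this second scale are called rescaled. In bulk RNA of a single line, a smaller share of cells that express a gene and less of its RNA per cell cannot be told apart.

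The 5 immunoproteasome genes were among the 7 proteasome genes with a log2 change above 1, beside Psmd10 and Psme2b. Psmb9, Psmb10, Psmb8, Psme1 and Psme2 all rose in M1, by 2.01-fold to 4.70-fold, whereas the median log2 change of the other 43 tested proteasome genes was 0.005 (0.35 rescaled). Of the 48 tested, 18 rose, 12 fell and 18 were not called in the limma fit on log2(TPM + 1), at a Benjamini-Hochberg adjusted p under 0.05. That is 37.5% higher and 25% lower, against 18.7% and 61.5% of all tested genes. Rescaled, 41 were higher (85.4%) and 2 lower, against 36.9% and 36.6% of all tested genes. All 18 that rose also rose rescaled, while of the 12 that fell 2 stayed lower, 5 were not called and 5 were called higher. The authors' deposited table gave 41 of these 48 genes as higher and 2 as lower in M1, against 35.6% and 32.2% of the tested genes it lists. Of the 48, 44 had a log2 change above the median of all genes. Every M1 library lay above every M0 library for 19 of the 48, against 2217 of all 11297 tested genes (19.6%), which is a smaller share. M1 replicate 3 was the lowest of the 3 M1 libraries for 29 of the 48 (60.4%), against 27.7% of all tested genes, and without it 21 rose and 12 fell.

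**Figure D1:**
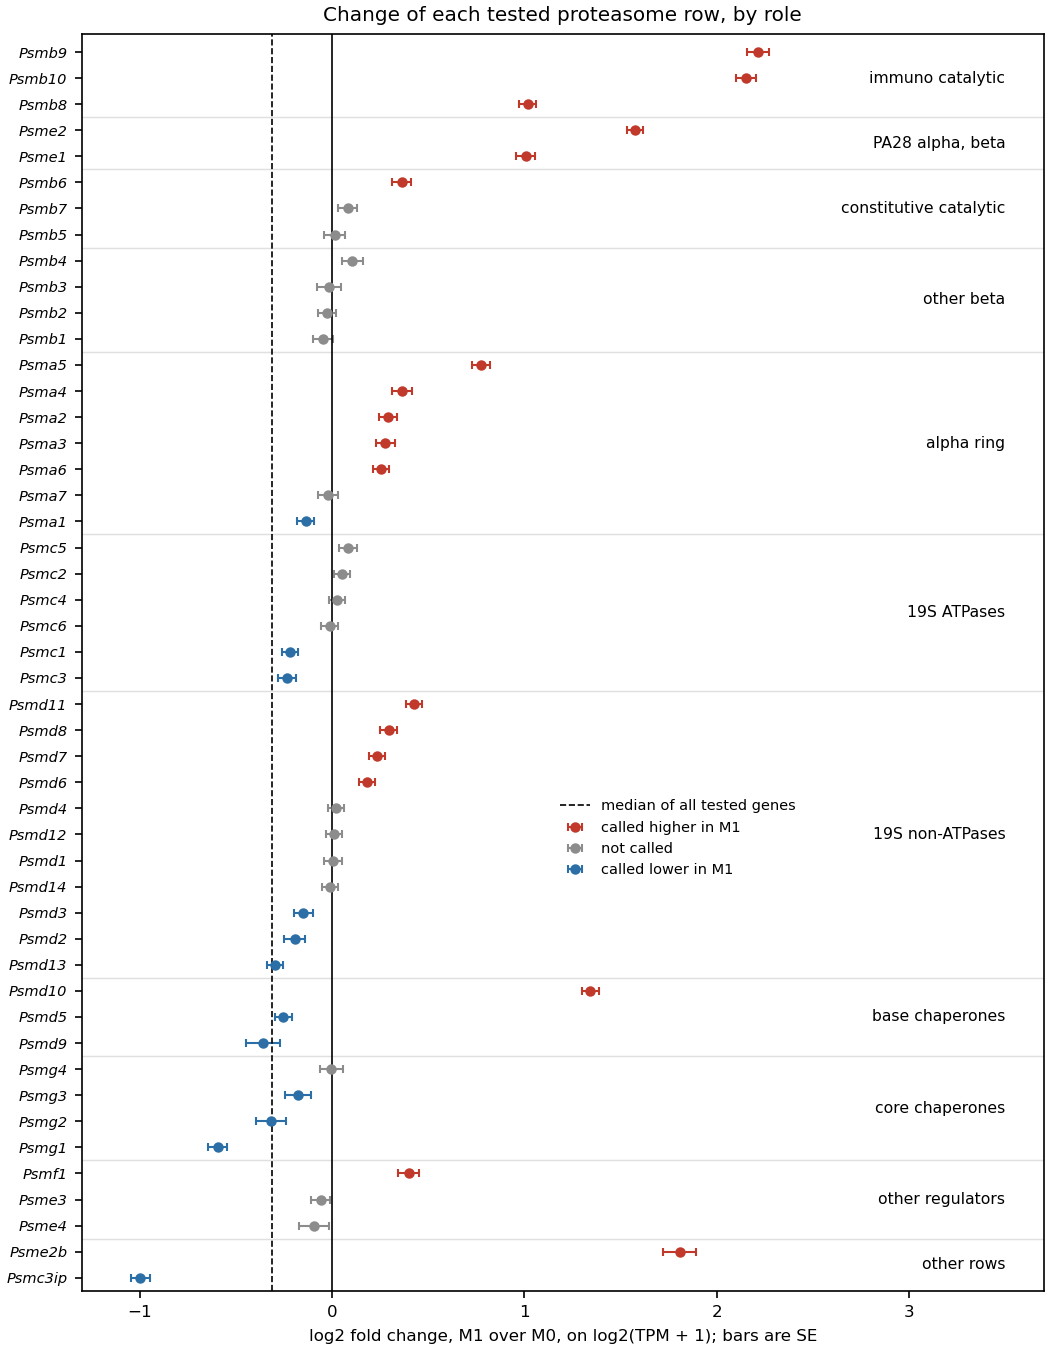
Log2 change of M1 over M0 on log2(TPM + 1) for the 48 tested proteasome genes, grouped by role, with points at the fitted value and bars of 1 SE; the dashed line is the median of all tested genes, -0.31. The 5 immunoproteasome genes, Psmd10 and Psme2b lie at 1 or above, Psmc3ip lies at -0.998, and most structural subunits lie near 0, right of the dashed line; rescaled, every point moves to the right, and 5 of the 12 that fell are called higher.

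Psmb9 (LMP2), the immunoproteasome subunit that takes the place of Psmb6, had 338, 328 and 304 TPM in M1 replicates 1 to 3 and 73.5, 65.9 and 67.3 TPM in M0 replicates 1 to 3. The lowest M1 library was more than 4 times the highest M0 library. Psmb9 averaged 323 ± 17.5 TPM in M1 and 68.9 ± 4.04 TPM in M0 (SD, n = 3 each), 4.70-fold higher in M1, with a log2 change of 2.22 (SE 0.056, limma with Benjamini-Hochberg adjustment, adjusted p = 2.0e-11). The gene lies on chromosome 17 from 34182099 to 34187330, minus strand, in the coordinates of the deposited table (mm10, transcript NM_013585), and 12743 reads in M1 and 2431 in M0 stood behind these values.

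Psmb10 (MECL-1), which takes the place of Psmb7, had 241, 246 and 222 TPM in M1 and 54.3, 51.0 and 52.0 TPM in M0. The groups were again wide apart. Its means were 236 ± 12.7 TPM in M1 and 52.4 ± 1.74 TPM in M0 (SD, n = 3 each), 4.51-fold higher in M1, and its log2 change was 2.15 with an SE of 0.051 (limma adjusted p = 1.1e-11). It lies on chromosome 8 from 105935728 to 105938392, minus strand (NM_013640), with 14714 reads in M1 and 2919 in M0.

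Psmb8 (LMP7), which takes the place of Psmb5, had 330, 332 and 325 TPM in M1 and 156, 161 and 170 TPM in M0. It was the most abundant of the 3 immunoproteasome cutting subunits in M0, and no M1 library overlapped an M0 library. Psmb8 averaged 329 ± 3.60 TPM in M1 and 162 ± 6.98 TPM in M0 (SD, n = 3 each), 2.03-fold higher in M1, and its log2 change was 1.02 with an SE of 0.045 (limma adjusted p = 2.5e-09). The 95% interval of that change was 0.92 to 1.12, against 2.09 to 2.34 for Psmb9 and 2.04 to 2.26 for Psmb10. Psmb8 lies on chromosome 17 from 34198195 to 34201454, plus strand (NM_010724).

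The levels of the 3 immunoproteasome cutting subunits lay closer together in M1, where their means ran from 236 to 329 TPM (coefficient of variation 17.5%), than in M0, where they ran from 52.4 to 162 TPM (62.6%). Summed, they reached 889 ± 32.8 TPM in M1 and 283 ± 5.39 TPM in M0 (SD, n = 3 each).

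The subunits of PA28 rose as well. Psme2 (PA28 beta) had 407, 410 and 391 TPM in M1 and 136, 134 and 133 TPM in M0, and Psme1 (PA28 alpha) had 303, 304 and 298 TPM in M1 and 157, 152 and 141 TPM in M0. Neither gene had overlapping groups. Psme2 averaged 403 ± 10.1 TPM in M1 and 134 ± 1.36 TPM in M0 (SD, n = 3 each), a log2 change of 1.58 with an SE of 0.042 (limma adjusted p = 2.9e-11). For Psme1 the means were 302 ± 3.07 TPM in M1 and 149.9 ± 8.20 TPM in M0, a log2 change of 1.01 with an SE of 0.048 (limma adjusted p = 4.8e-09). The partners assemble into mixed rings, and Psme2 stood above Psme1 in every M1 library and below it in every M0 library. Psme1 lies on chromosome 14 from 55578494 to 55581527, plus strand (NM_011189), and Psme2 from 55587440 to 55591021, minus strand (NM_011190).

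All 5 immunoproteasome genes kept their call on the rescaled values, with log2 changes of 1.36 for Psmb8, 2.56 for Psmb9, 2.49 for Psmb10, 1.35 for Psme1 and 1.92 for Psme2. The authors' deposited table gave 1.39, 2.59, 2.54, 1.38 and 1.95 for the same genes in the same order.

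**Figure D2:**
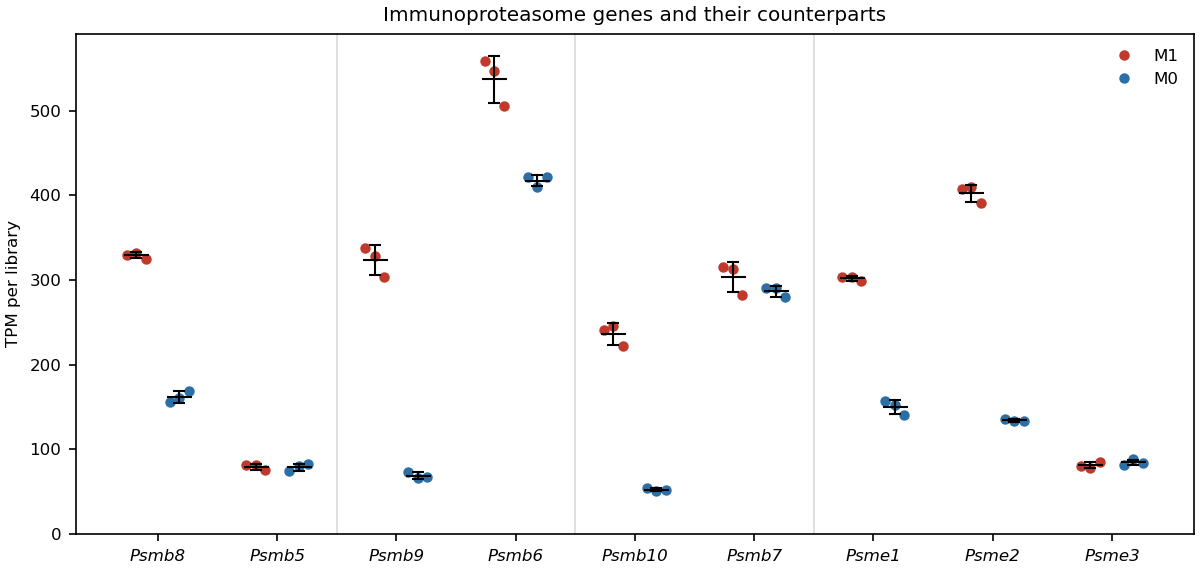
TPM per library of the immunoproteasome genes and their constitutive counterparts, with M1 left of M0; points are libraries, the long dash is the mean and the whiskers are 1 SD (n = 3 each). The M1 libraries of Psmb8, Psmb9, Psmb10, Psme1 and Psme2 all lie above the M0 libraries, whereas those of Psmb5, Psmb7 and Psme3 overlap them.

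Of the 3 constitutive cutting subunits, 1 rose and the other 2 were not called, against 18.7% of all tested genes that rose. Psmb5, the chymotrypsin-like subunit, had 82.1, 81.5 and 75.5 TPM in M1 and 74.1, 80.2 and 82.4 TPM in M0. The groups overlapped, and the log2 change of 0.02 had a 95% interval of -0.10 to 0.14 (limma adjusted p = 0.80). Psmb7, the trypsin-like subunit, had 315, 313 and 283 TPM in M1 and 290.5, 290.5 and 279.6 TPM in M0, a log2 change of 0.08 with an interval of -0.03 to 0.19 (limma adjusted p = 0.17). Without M1 replicate 3 it was called higher, with 0.13 (limma adjusted p = 0.013).

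Psmb6, the caspase-like subunit, was the one that rose and was the most abundant of all proteasome genes in M1. It had 559, 547 and 505 TPM in M1 and 421, 410 and 421 TPM in M0. No libraries overlapped, and the log2 change was 0.36 (SE 0.049, limma adjusted p = 3.1e-05). Rescaled, all 3 constitutive cutting subunits were called higher, with log2 changes of 0.36 for Psmb5, 0.71 for Psmb6 and 0.43 for Psmb7.

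Ratios taken within a library do not depend on the scaling between libraries. Psmb8 over Psmb5 was 4.02, 4.08 and 4.31 in M1 and 2.10, 2.01 and 2.06 in M0, a ratio 2.01-fold higher in M1. Psmb9 over Psmb6 was 0.605, 0.600 and 0.602 in M1 and 0.174, 0.161 and 0.160 in M0, 3.65-fold higher. Psmb10 over Psmb7 was 0.765, 0.786 and 0.785 in M1 and 0.187, 0.175 and 0.186 in M0, 4.26-fold higher. In both groups Psmb8 transcripts thus outnumbered those of Psmb5, whereas Psmb9 and Psmb10 stayed below their counterparts.

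Summed PA28 transcripts, Psme1 plus Psme2, over those of Psme3, the subunit of the related nuclear cap PA28 gamma, were 8.80, 9.13 and 8.08 in M1 and 3.58, 3.24 and 3.24 in M0, 2.58-fold higher. Psme3 itself had 80.8, 78.1 and 85.3 TPM in M1 and 81.7, 88.3 and 84.5 TPM in M0 and was not called (limma adjusted p = 0.30). The immunoproteasome share of the TPM of all 6 cutting subunits was 49.1% ± 0.454 in M1 and 26.6% ± 0.342 in M0 (SD, n = 3 each), a difference of 22.6 percentage points. For the 4 ratios and the share, the exact two-sided permutation test over libraries gave p = 0.10 each, and 0.10 adjusted over the 5, which is the smallest that 3 libraries against 3 allow.

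**Figure D3:**
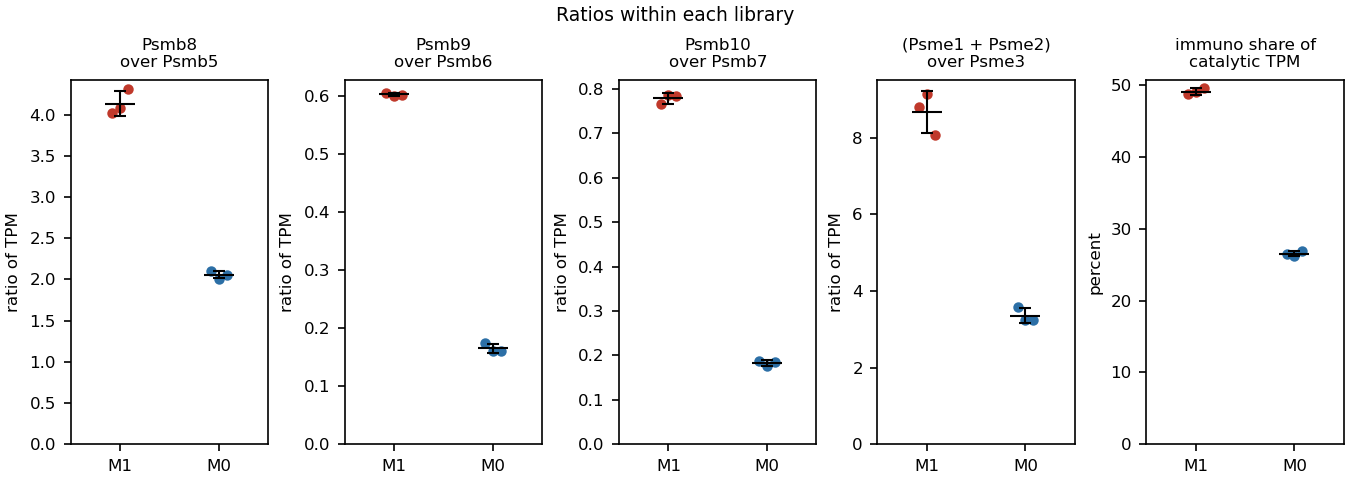
Ratio of immunoproteasome to constitutive TPM within each library, and the immunoproteasome share of the TPM of the 6 cutting subunits, with M1 left of M0; points are libraries, the long dash is the mean and the whiskers are 1 SD (n = 3 each). The groups do not overlap in any panel, and the share is near 49.1% in M1 and 26.6% in M0.

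Together the 6 cutting subunits had 1810 ± 82.4 TPM in M1 and 1067 ± 7.06 TPM in M0 (SD, n = 3 each), 1.70-fold higher in M1. The constitutive 3 gave 921 ± 49.7 TPM in M1 and 783 ± 2.51 TPM in M0. The 7 alpha ring genes summed to 1830 ± 80.0 TPM in M1 and 1631 ± 30.1 TPM in M0. Immunoproteasome cutting subunits take the places of the constitutive 3, whereas the alpha genes were not counted as alternatives. The sums thus cover unlike sets of positions and do not give the balance of subunits in a particle. All 50 genes together made up 1.43% to 1.49% of the summed TPM of an M1 library and 1.24% to 1.25% of an M0 library.

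The role groups below can be read against all tested genes, of which 18.7% rose and 61.5% fell, and 36.9% and 36.6% rescaled. The alpha subunits form the outer rings. Of 7, 5 rose, 1 fell and 1 was not called, and rescaled all 7 were higher. Psma5 had 202, 195 and 184 TPM in M1 and 115, 109 and 115 TPM in M0. Its libraries did not overlap, and it was 1.72-fold higher in M1, and its log2 change was 0.77 with an SE of 0.048 (limma adjusted p = 4.0e-08). Psma4, Psma2, Psma3 and Psma6 rose with log2 changes of 0.36, 0.29, 0.28 and 0.25. Psma7, the most abundant alpha gene, had 523 ± 31.6 TPM in M1 and 531 ± 13.5 TPM in M0 (SD, n = 3 each) and was not called. Psma1 fell on the TPM scale, with a log2 change of -0.14 (limma adjusted p = 0.013), and was higher rescaled, with 0.21. Without M1 replicate 2 it missed the threshold (limma adjusted p = 0.0502). Levels differed among the alpha genes by more than the treatment moved them, from 76.1 TPM for Psma3 to 523 TPM for Psma7 in M1 and from 62.6 to 531 TPM for the same pair in M0.

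None of the 4 beta subunits without a cutting site, Psmb1 to Psmb4, was called on the TPM scale, and their log2 changes ran from -0.05 for Psmb1 to 0.11 for Psmb4. Rescaled, all 4 were higher, by 0.30 to 0.45. Psmb4 was the most abundant, with 484 ± 20.01 TPM in M1 and 450 ± 29.7 TPM in M0 (SD, n = 3 each). It was called higher without M1 replicate 3 (limma adjusted p = 0.030) or without M0 replicate 3 (limma adjusted p = 0.026).

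The 6 ATPases of the 19S base, which unfold substrates, stood at similar levels to each other. Their means ran from 105 to 148 TPM in M1 (coefficient of variation 12.5%) and from 102 to 155 TPM in M0 (15.1%), against 51.6% and 66.2% among the alpha genes. None rose, 2 fell and 4 were not called, while rescaled all 6 were higher. Psmc3 had 118 ± 1.33 TPM in M1 and 139 ± 6.34 TPM in M0, and its log2 change of -0.23 turned to 0.11 rescaled. Psmc1 had 134 ± 2.27 TPM in M1 and 155 ± 2.96 TPM in M0, and its -0.22 turned to 0.13. Psmc5 had the highest fitted change of the 6, 0.08, which was not called on the TPM scale with all libraries and was called higher there without M1 replicate 3 (limma adjusted p = 0.039). Psmc2, Psmc4 and Psmc6 were not called on that scale either. Psmc2 had 104, 105 and 106 TPM in M1, against 104, 100.1 and 101 TPM in M0. Psmc4 had 115 ± 0.346 TPM in M1 and 113 ± 2.93 TPM in M0 (SD, n = 3 each). Psmc6 had 135 ± 5.22 TPM in M1 and 136 ± 3.19 TPM in M0 (SD, n = 3 each).

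The 50 genes hold 11 non-ATPase subunits of the 19S particle and leave out Sem1 and Adrm1, which are given below. Of the 11, 4 rose, 3 fell and 4 were not called, and rescaled 10 were higher and none lower. Psmd11, which links the lid to the core, had 127, 128 and 124 TPM in M1 and 95.4, 95.2 and 90.2 TPM in M0. That was the highest change of the group, 0.43 on the log2 scale (SE 0.044, limma adjusted p = 3.2e-06), with no overlap. Psmd8, a lid subunit, was the most abundant 19S gene among the 50 genes. It had 512 ± 10.9 TPM in M1 and 417 ± 12.8 TPM in M0, a log2 change of 0.30. Psmd7, the partner of the deubiquitinase Psmd14, and Psmd6 rose with 0.23 and 0.18. Psmd14 itself had 122 ± 2.52 TPM in M1 and 124 ± 2.26 TPM in M0, and the ubiquitin receptor Psmd4 had 187 ± 4.02 TPM in M1 and 184 ± 3.28 TPM in M0 (SD, n = 3 each); neither was called. Psmd13 had the lowest change, -0.30, with 99.3 ± 2.77 TPM in M1 and 122 ± 1.96 TPM in M0, and was not called rescaled (0.05). Psmd2, a scaffold that binds ubiquitin shuttles, and Psmd3 fell with -0.19 and -0.15 but were higher rescaled, with 0.15 and 0.19. Psmd3 was not called without M1 replicate 1 (limma adjusted p = 0.085).

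Taken over the 31 structural subunits of the constitutive 26S proteasome among the 50 genes, 10 rose, 6 fell and 15 were not called. Their median log2 change was 0.02. Rescaled, 30 were higher and none lower, with a median of 0.37. The 10 that rose were higher on both scales, whereas the calls of the other 21 depended on the scale.

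Genes that help to assemble the particle went in different directions. Psmd10 (gankyrin), a chaperone of the 19S base, had 86.0, 89.1 and 83.7 TPM in M1 and 32.7, 33.6 and 33.9 TPM in M0. The M1 libraries were all more than 2 times the M0 libraries. Psmd10 was 2.58-fold higher in M1, a log2 change of 1.34 with an SE of 0.046 (limma adjusted p = 2.7e-10), above Psmb8 and Psme1. The other base chaperones fell: Psmd5 had 46.7 ± 1.08 TPM in M1 and 55.8 ± 1.47 TPM in M0 (log2 change -0.25), and Psmd9 had 9.31 ± 1.05 TPM in M1 and 12.2 ± 1.06 TPM in M0 (-0.36). Neither was called rescaled, where the log2 changes were 0.09 and -0.04.

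Of the 4 chaperones of the 20S core, which pair up to build the alpha ring, 3 fell and none rose. Among all tested genes 61.5% fell and 18.7% rose on the same scale. Psmg1 (PAC1) had 26.9, 25.3 and 26.2 TPM in M1 and 40.0, 38.6 and 41.4 TPM in M0. Its libraries did not overlap, and the log2 change of -0.60 with an SE of 0.051 (limma adjusted p = 6.9e-07) stayed negative and called when rescaled (-0.26). Psmg2 (PAC2), its partner, had a log2 change of -0.32 and Psmg3 (PAC3) one of -0.18, and rescaled neither was called (0.02 and 0.16). The call of Psmg3 was lost without M1 replicate 1, M1 replicate 3, M0 replicate 2 or M0 replicate 3, with limma adjusted p of 0.061 to 0.11. Psmg4 (PAC4) had 41.5 ± 3.04 TPM in M1 and 41.5 ± 1.68 TPM in M0 (SD, n = 3 each), was not called on the TPM scale, and was called higher when rescaled (0.34).

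Among the other caps and inhibitors, Psmf1 (PI31) rose. It had 24.5, 25.0 and 26.8 TPM in M1 and 18.9, 19.6 and 18.7 TPM in M0, with no overlap and a log2 change of 0.40 with an SE of 0.056 (limma adjusted p = 4.3e-05). Psme4 (PA200), a single-chain cap, had 22.6 ± 2.55 TPM in M1 and 24.1 ± 1.71 TPM in M0 and was not called, except as lower without M1 replicate 3 (log2 change -0.18, limma adjusted p = 0.021); rescaled it was called higher (0.24).

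The symbol rule also takes genes that are not part of the standard particle. Psme2b, a close copy of Psme2 on another chromosome, had 23.5, 22.3 and 25.3 TPM in M1 and 5.17, 6.62 and 6.43 TPM in M0, a log2 change of 1.81 with an SE of 0.086 (limma adjusted p = 4.5e-09). It lies on chromosome 11 from 48945352 to 48946410 among interferon-inducible GTPase genes such as Irgm1 (574 TPM in M1 and 19.7 TPM in M0), and overlaps the transcript 9930111J21Rik1. The counting could have split reads between Psme2, Psme2b and that transcript, so its value is uncertain; adding Psme2b to Psme2 moved the PA28 ratio above to a log2 difference of 1.39, against 1.37 without it. Psmc3ip, which encodes a partner of meiotic recombinases and not a proteasome subunit, had 19.1, 19.1 and 19.2 TPM in M1 and 40.2, 39.6 and 38.1 TPM in M0. It fell, and its log2 change was -0.998 with an SE of 0.049 (limma adjusted p = 5.9e-09), and remained lower when rescaled (-0.66).

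The pair that failed the filter of 1 TPM in at least 3 libraries were subunits restricted to other tissues. Psma8, the alpha subunit of the testis, was listed at 0 in all 6 libraries, where 3 reads would have given at most 0.134 TPM. Psmb11, the beta subunit of the thymus cortex, had 0.014, 0.027 and 0.015 TPM in M1 and 0.015, 0 and 0 TPM in M0, which is 4 reads in M1 against 1 in M0.

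**Figure D4:**
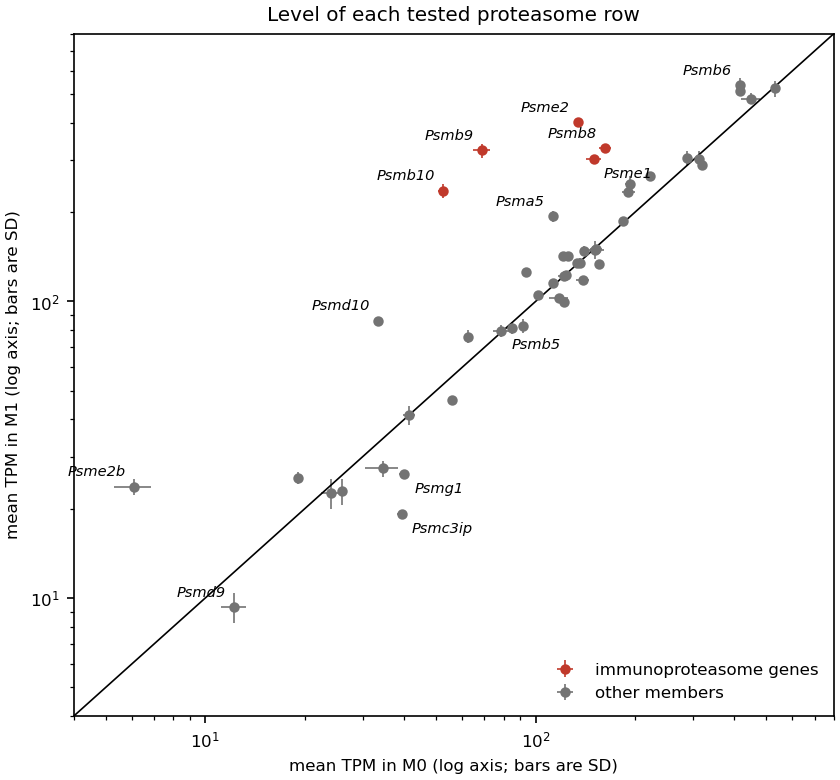
Mean TPM in M1 (vertical) against mean TPM in M0 (horizontal) of the 48 tested proteasome genes, both on log axes, with bars of 1 SD (n = 3 each) and a line of equal levels. The immunoproteasome genes, Psmd10, Psme2b and Psma5 lie above the line, Psmc3ip and Psmg1 lie below it, and most other genes lie close to it; rescaled, most of these lie above it.

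Neighbouring genes were looked up for the immunoproteasome genes, Psme2b and Psmd10, and not for the other genes that rose. Among all tested genes 18.7% were called higher and 61.5% lower, so a neighbour that is called is not unusual. Changes of neighbours are on the TPM scale, where the median of all tested genes was -0.31. Psmb9 and Psmb8 lie in the class II part of the MHC on chromosome 17, each beside a gene of the peptide transporter TAP, which carries proteasome products into the endoplasmic reticulum. Psmb9 and Tap1 start 226 bases apart on opposite strands, and their promoter windows share 275 bases. Tap1 had 306 ± 8.37 TPM in M1 and 16.6 ± 0.669 TPM in M0, a log2 change of 4.13, against 2.22 for Psmb9. Psmb8 begins 970 bases after the end of Tap1, and Tap2, 3025 bases further on, had a log2 change of 2.14 (limma adjusted p = 9.9e-12). The flanking class II genes H2-DMb2, H2-DMb1 and H2-Ob were too low to be tested, and H2-DMa fell (1.90 ± 0.240 TPM in M1 and 4.03 ± 0.520 TPM in M0).

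**Figure D5:**
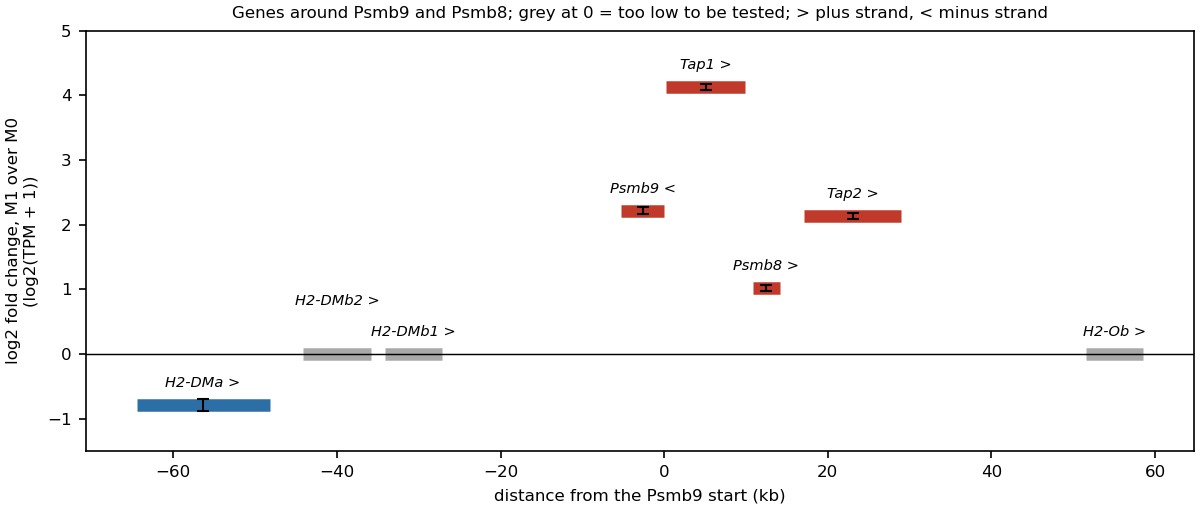
Log2 change of M1 over M0 on log2(TPM + 1) for the genes around Psmb9 and Psmb8, against distance from the Psmb9 start in kb; bars span the genes, whiskers are 1 SE, and genes too low to be tested are drawn grey at 0. Psmb9, Tap1, Psmb8 and Tap2 form a run of 4 genes with changes of 2.22, 4.13, 1.02 and 2.14, and H2-DMa on one side is at -0.79.

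On chromosome 14, 5913 bases separate Psme1 and Psme2, and the gene between them, Emc9, fell (7.73 ± 0.436 TPM in M1 and 10.4 ± 0.394 TPM in M0, log2 change -0.39). On the far side of Psme1, Dcaf11 was not called (-0.11) and Pck2 fell with -0.57. Psme2 starts 721 bases from Rnf31, a ubiquitin ligase subunit of the linear ubiquitin assembly complex, which rose with 1.29, and the interferon factor gene Irf9 beyond it rose with 0.91. Beside Psmb10 on chromosome 8, the neighbours that could be tested, Pskh1 and Slc12a4, fell with log2 changes of -0.65 and -0.72. Psmd10 on chromosome X starts 196 bases from Atg4a, an autophagy protease gene on the opposite strand, which rose with 0.54. Further along on that side, Col4a5 fell with -0.41. The labels do not say whether strand was used in counting, so reads where transcripts overlap, as at the ends of Psme1 and Emc9, cannot be told apart.

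Genes linked to the proteasome but outside the symbol rule were counted from lists. Beside the counts that follow, 18.7% of all tested genes rose and 61.5% fell, and 36.9% and 36.6% rescaled. Of 11 other subunits, maturation factors and partners, 3 rose and 5 fell, and rescaled 8 were higher and none lower. Pomp, which matures the core, had 261, 249 and 232 TPM in M1 and 176, 177 and 183 TPM in M0, a log2 change of 0.46 (limma adjusted p = 5.7e-06). Zfand5, a zinc-finger protein that stimulates the 26S proteasome, rose with 0.53, Adrm1, a ubiquitin receptor, with 0.15, and Uchl5, a deubiquitinase of the particle, fell with -0.34 (0.006 rescaled, not called). Sem1, a small 19S subunit and the most abundant of the list, had 534 ± 42.0 TPM in M1 and 635 ± 29.4 TPM in M0 and fell with -0.25 (0.10 rescaled, not called).

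Nfe2l1 encodes NRF1, the transcription factor known to raise proteasome genes through antioxidant response elements when proteasome activity is short. It had 112, 117 and 128 TPM in M1 and 84.9, 95.1 and 90.8 TPM in M0 and rose with a log2 change of 0.40 with an SE of 0.060 (limma adjusted p = 8.6e-05). Of the 3 proteins that process it, Ngly1, which removes its sugars, rose with 0.57, and Ddi2, the protease that cuts it, fell with -0.58 and remained lower rescaled (-0.25). Vcp, the extracting ATPase, fell with -0.27 and was not called rescaled (0.07).

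Of 12 genes for ubiquitin, its activating enzymes and its shuttles, 2 rose and 5 fell, and rescaled 9 were higher and 2 lower. Sqstm1 (p62), which delivers ubiquitylated cargo to autophagy, had 438, 444 and 475 TPM in M1 and 186, 199 and 195 TPM in M0, a log2 change of 1.22 (limma adjusted p = 9.0e-10). Uba6, an activating enzyme, rose with 0.30. Ubqln2, a shuttle factor, fell with -0.71, and Ubqln4 with -0.69; both stayed lower when rescaled (-0.38 and -0.35).

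All 5 genes of the class I pathway counted beside the proteasome rose. B2m, the light chain of class I molecules, had 2872 ± 113 TPM in M1 and 1349 ± 70.6 TPM in M0, a log2 change of 1.09, and the trimming peptidase Erap1 had 0.96. The interferon regulators Irf1 and Nlrc5 rose too, with log2 changes of 4.47 and 3.95, both larger than that of any proteasome gene.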

How the data were processed

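Poly(A) RNA of 3 M1 and 3 M0 libraries was compared. The authors deposited a table of TPM per gene with transcript coordinates and lengths, and a table of log2 values per sample with their own log2 fold changes, p-values and adjusted p-values, per the file headers (no source used here states the log2 transform). Per the submitters' processing notes the build was mm10 and the tools included STAR 2.7.5a, HOMER 4.11.1, bcl2fastq and DESeq2, whose roles are not stated. What aligned, counted or normalized the reads, and whether strand was used, could therefore change the levels in ways not examined here.

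From the TPM, the 11297 genes that reached 1 TPM in at least 3 libraries were fitted with limma 3.58.1 in R 4.3.3, with trend and robust empirical Bayes on log2(TPM + 1), no term but group, and 4 residual degrees of freedom. Calls are at a p under 0.05 after Benjamini-Hochberg adjustment over all tested genes. Log2 changes are M1 over M0 on the log2(TPM + 1) scale, which understates changes of low genes; folds are ratios of mean TPM. Rescaled values are TPM divided by median-of-ratios factors, refitted in the same way. Ratios within libraries were tested by exact two-sided permutation. TPM times length came out as whole reads for 99.8% to 99.9% of values above 0, within 0.1 of a read, so read numbers and the floor of 3 reads cover counting error only. Libraries of a group differed beyond sampling noise, with a chi-square of 1.54 to 7.55 per degree of freedom for a pair, and each library counted once. The limma procedure was also run on simulated data in which few genes changed, balanced up and down. That setting lacks the shift across all genes seen here, so it does not bear on calls that depend on the scale.

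The proteasome genes and the lists were chosen with earlier results of these data known. Any gene the symbol rule takes could be named, with values in every library for the immunoproteasome genes and their counterparts; named in any case were those that rose, those under the filter, and the highest, lowest and most abundant of each other role group. Up to 3 genes of each other list were to be named. Pomp, Adrm1, Vcp, Uba6, Ubqln4 and the neighbours of genes that rose were named after their values had been seen. Some genes of the lists are not reported here. Promoter windows are RefSeq's of GRCm38.p6, the assembly that mm10 represents, and were searched for 5 motifs on both strands. Alternatives were another pseudocount, no filter, upper-quartile and median-of-ratios scaling, the deposited log2 columns, voom on recovered reads, a simpler variance model, a replicate block and leaving out each library in turn; adding Psme2b to Psme2 was chosen after the data had been seen.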

Additional observations from a re-analysis of the deposited data

How the results depend on the processing

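The 5 immunoproteasome genes rose under every alternative run. Their median log2 change was 1.92 with median-of-ratios scaling, 1.72 with upper-quartile scaling and 1.91 on the deposited log2 columns, and 1.56 to 1.60 leaving out one library. Counts over the other proteasome genes depended on the scaling. Calls over all genes were 4173 higher and 4131 lower with median-of-ratios scaling and 4152 and 3865 on the deposited log2 columns, and over the proteasome genes 41 and 2, and 42 and 2; upper-quartile scaling gave 29 and 4. For the 43 tested genes outside these 5, which include the chaperones, Psme2b and Psmc3ip, the median was also taken. It was 0.35, 0.15 and 0.37 with median-of-ratios scaling, upper-quartile scaling and the deposited columns. Leaving out each library in turn gave -0.0053 to 0.028, the highest without M1 replicate 3 and the lowest without M1 replicate 1. On the deposited columns the log2 difference of Psmb9 over Psmb6 was 1.82 and that of Psmb10 over Psmb7 was 2.04, and with recovered reads in place of TPM the catalytic share differed by 22.0 points.

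The sign turned for 18 genes with median-of-ratios scaling and for 18 on the deposited columns, in that order Psma1 0.21 and 0.22, Psma7 0.32 and 0.34, Psmb1 0.30 and 0.31, Psmb2 0.32 and 0.33, Psmb3 0.33 and 0.34, Psmc1 0.13 and 0.14, Psmc3 0.11 and 0.13, Psmc6 0.33 and 0.35, Psmd2 0.15 and 0.16, Psmd3 0.19 and 0.21, Psmd5 0.089 and 0.10, Psmd13 0.049 and 0.067, Psmd14 0.33 and 0.35, Psme3 0.29 and 0.30, Psme4 0.24 and 0.27, Psmg2 0.019 and 0.037, Psmg3 0.16 and 0.17, Psmg4 0.34 and 0.38. With upper-quartile scaling it turned for Psma1 (0.0041), Psma7 (0.12), Psmb1 (0.096), Psmb2 (0.12), Psmb3 (0.12), Psmc6 (0.13), Psmd14 (0.13), Psme3 (0.082), Psme4 (0.042) and Psmg4 (0.14; 0.0090 with voom). These alternatives shift all genes of a library by 1 factor or use another scale. Leaving out one library, signs turned for genes near 0: Psma7 (-0.054 to 0.028), Psmb1 (-0.087 to 0.0012), Psmb3 (-0.055 to 0.042), Psmb5 (-0.029 to 0.054), Psmc6 (-0.030 to 0.020), Psmd1 (-0.030 to 0.030), Psmd12 (-0.0016 to 0.023), Psmd14 (-0.027 to 0.0040) and Psmg4 (-0.037 to 0.058). Psmg3 lost its call with no filter (limma adjusted p = 0.065) and with voom (limma adjusted p = 0.074).

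M1 and M0 libraries with the same replicate number did not deviate together (correlations of 0.071, -0.076 and 0.037), so the numbers were not taken to pair them. A replicate block gave 2143 higher and 7016 lower calls over all genes and the same 18 and 12 over the proteasome genes. At these depths, only Psma8 and Psmb11 were too low to be tested.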
